A study of Mus musculus with 2 samples.

Results

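The 8 genes followed here encode cadherins and catenins, most of them proteins of the adherens junction, and all 8 were listed in both libraries. They are the cadherins Cdh1 (E-cadherin), Cdh2 (N-cadherin), Cdh3 (P-cadherin), Cdh11 (OB-cadherin) and Cdh13 (H- or T-cadherin), and the catenins Ctnna1 (alpha-catenin), Ctnnb1 (beta-catenin) and Ctnnd1 (p120-catenin). The choice was by gene symbol, out of 16902 genes listed in at least 1 library. RNA was sequenced from EpCAM-positive cells of mouse mammary tumours that arise from the polyoma middle T oncogene, here called PyMT, and from the same kind of cells of PyMT;Zeb1cKO tumours, which also carry a conditional knockout of Zeb1, here called Zeb1cKO. Both groups carry the oncogene. Each group has 1 library, so no test between genotypes can be made, and the effect of genotype cannot be told apart from differences between tumours, animals or preparations. The sources used here do not name the promoter of the oncogene, the Cre line, the deleted part of Zeb1, the strain, the age or any pooling of animals.

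Classical cadherins are calcium-dependent adhesion receptors that bind the same kind of cadherin on a neighbouring cell. Their cytoplasmic tails hold p120-catenin, which keeps the cadherin at the membrane, and beta-catenin, which recruits alpha-catenin and through it the actin cytoskeleton. In the mammary gland E-cadherin marks luminal cells, P-cadherin marks basal and myoepithelial cells, and a shift from E-cadherin to N-cadherin is the textbook sign of epithelial-mesenchymal transition. Zeb1 is known as a direct repressor of Cdh1.

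The libraries held 21580274 estimated counts (PyMT) and 21277484 (Zeb1cKO). Levels are the authors' FPKM, which divides fragments by gene length and library depth, so genes can be set side by side within a library. Differences are given as the count ratio, Zeb1cKO over PyMT after division by the library totals, with an exact 95% interval that covers counting error only, and as the log2 ratio of (FPKM + 1), which understates the difference of low genes. The median log2 ratio of the 12653 genes that reached an FPKM of 1 in at least 1 library was 0.13, and it was 0.00 after scaling by the median count ratio, so a ratio of a gene that kept pace with the others lies slightly above 1. Zeb1 itself had 96 counts in PyMT and 38 in Zeb1cKO, a count ratio of 0.401 (0.268 to 0.590). At 0.79 and 0.32 FPKM it was not among the compared genes. Epcam, the surface protein used for the sort, was at 740.82 and 479.66 FPKM, and the epithelial keratin genes Krt8 (1584.09 and 830.30) and Krt18 (1836.43 and 712.37) were among the abundant genes of both libraries. Marker genes of fibroblasts, endothelium and leukocytes were also present in both, none at 0, and 8 skeletal muscle genes summed to 228 FPKM in PyMT against 1.79 in Zeb1cKO.

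E-cadherin was by far the most abundant of the 5 cadherin transcripts in both libraries, and it was lower in Zeb1cKO. N-cadherin was higher there and P-cadherin lower, and both were a small part of the cadherin transcripts. All 3 catenins were lower by less than 2-fold. Of the 8 genes, Cdh3 alone was at least 2-fold lower on the log2(FPKM + 1) scale, where 8.78% of compared genes were, and none was 2-fold higher, where 10.2% were. By count ratio 1 gene (Cdh2) was at least 2-fold higher and 2 (Cdh3 and Cdh13) were at least 2-fold lower, beside 15.4% and 11.7% of all compared genes. The counting interval lay wholly below 1 for 6 members, as for 33.1% of compared genes, and wholly above 1 for 2, as for 49.9%. At this depth 83.0% of all compared genes had an interval without 1, so this says little about the members beyond the precision of the counts.

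**Figure D1:**
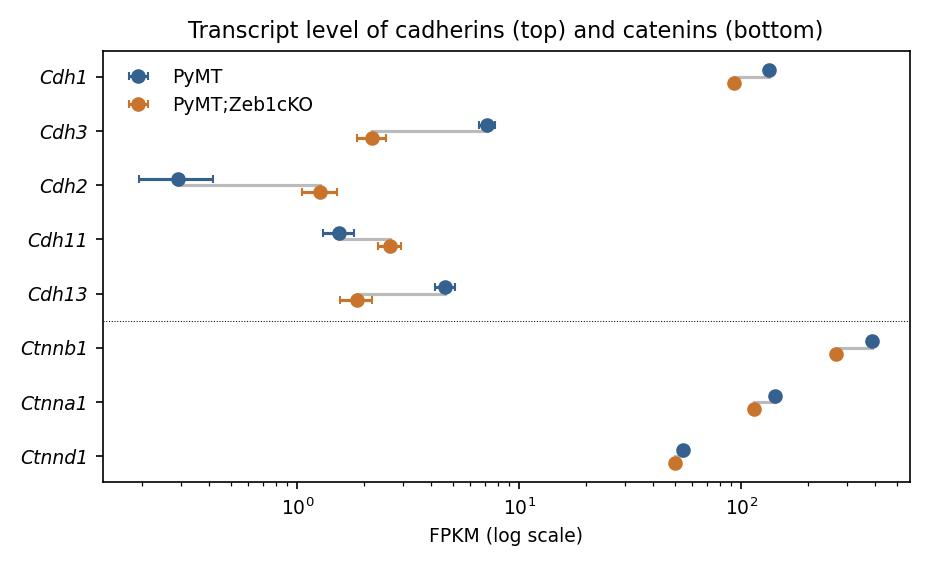
Level of each of the 8 genes in FPKM (log axis) in PyMT (blue) and the Zeb1cKO library (orange), 1 library each, with 95% Poisson intervals of the counts as horizontal bars. Cdh1 and the 3 catenins lie between 50.35 and 387.59 FPKM in both libraries, and the other 4 cadherins between 0.29 and 7.13.

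E-cadherin (Cdh1, Entrez gene 12550, chromosome 8, 106603350 to 106670247, plus strand, mm10) is the cadherin of epithelial cells. It was at 133.50 FPKM in PyMT, from 12266 counts, and at 92.96 in Zeb1cKO, from 8452. Zeb1cKO was the lower one, with a count ratio of 0.699 (0.680 to 0.719) and a log2 ratio of -0.52, and 19.3% of compared genes had a lower log2 ratio. Cdh1 stood above 95.4% of listed genes in PyMT and above 93.2% in Zeb1cKO. The 6 epithelial marker genes were lower as well, with a median log2 ratio of -0.97 and a summed level of 5976 FPKM against 2965. Set against each of these markers, Cdh1 kept the higher count ratio. Relative to Epcam it was 1.07 times as high in Zeb1cKO (1.04 to 1.11), relative to Krt8 1.32 times (1.28 to 1.36), relative to Krt18 1.78 times (1.72 to 1.84) and relative to Krt19 2.12 times (2.01 to 2.24). For the tight junction genes Cldn3 and Cldn7 the corresponding values were 1.20 (1.16 to 1.25) and 1.38 (1.32 to 1.45), the first with non-whole counts and therefore uncertain. These ratios of ratios do not depend on how the libraries are scaled, and the marker pairs were chosen after the values were seen. In bulk RNA, fewer cells of a type and less RNA per cell cannot be told apart.

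P-cadherin (Cdh3, Entrez gene 12560, chromosome 8, 106510852 to 106556911, plus strand) lies next to Cdh1 on the same strand and ends 46438 bases before its start. It was at 7.13 FPKM in PyMT (592 counts) and at 2.17 in Zeb1cKO (178 counts). Its count ratio of 0.305 (0.256 to 0.361) and log2 ratio of -1.36 were the lowest of the 8 genes, with 4.85% of compared genes lower still on the log2 scale. The neighbours thus differed in degree: the Cdh1 count ratio was 2.29 times that of Cdh3 (1.93 to 2.73), and the FPKM of Cdh1 was 18.7 times that of Cdh3 in PyMT and 42.8 times in Zeb1cKO. The 9 basal and myoepithelial markers, the cells in which P-cadherin is best known, went both ways, with 4 below and 5 above a log2 ratio of 0, a median of 0.05 and a summed level of 971 FPKM against 571. The median turned to -0.08 after scaling by the median ratio and to -0.09 with TMM factors. The basal keratin genes Krt5 (397.38 and 238.99 FPKM) and Krt17 (181.70 and 67.10) were lower in Zeb1cKO. Trp63, the transcription factor of basal cells, was higher there (3.03 and 8.70 FPKM, count ratio 2.91, 2.53 to 3.35), as was the oxytocin receptor gene Oxtr (0.63 and 2.03), which passed the filter through Zeb1cKO alone. Against Krt17 the Cdh3 ratio was 0.819 (0.684 to 0.978), against Krt5 0.503 (0.422 to 0.597) and against Trp63 0.105 (0.0840 to 0.131), pairs chosen after the values were seen. The part of basal cells in the Cdh3 difference was not tested.

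N-cadherin (Cdh2, Entrez gene 12558, chromosome 18, 16588877 to 16809246, minus strand) is the cadherin of neurons, muscle and mesenchymal cells. It was the lowest of the 8 in both libraries, at 0.29 FPKM from 29 counts in PyMT and at 1.26 FPKM from 126 counts in Zeb1cKO. The count ratio was 4.41 (2.92 to 6.85), above that of 96.2% of compared genes, while the log2(FPKM + 1) ratio was 0.81 because the level is near the pseudocount. The log2 ratio was 1.80 with a pseudocount of 0.1. Cdh2 is the 1 member that passed the filter on low values through the Zeb1cKO library alone, where it is high, so its presence among compared genes already leans that way. Even there E-cadherin exceeded N-cadherin 73.8 times in FPKM, against 460 times in PyMT. Relative to Cdh1 the N-cadherin ratio was 6.30 (4.18 to 9.81), and relative to Cdh3 it was 14.4 (9.20 to 23.2). P-cadherin was above N-cadherin in both libraries, but the N- to P-cadherin quotient went from 0.0407 in PyMT to 0.581 in Zeb1cKO. Beside it, the 8 muscle genes were lower in Zeb1cKO, with a median log2 ratio of -3.86 over the 7 compared, all of which passed the filter through PyMT alone, where they are high. The 5 pericyte markers summed to 42.4 FPKM in PyMT and 31.6 in Zeb1cKO (median -0.50), mostly Notch3 (29.17 and 19.22), while Rgs5 of the same list was higher in Zeb1cKO (2.74 and 7.13 FPKM, count ratio 2.47, 2.10 to 2.91). The 6 leukocyte markers summed to 88.1 and 94.4 FPKM. Of the 6 Schwann cell markers, which summed to 328 and 245 FPKM, nearly all came from Sox10 (305.50 and 231.49), a gene that mammary epithelium also expresses. Which cells the 126 N-cadherin counts came from is not known.

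OB-cadherin (Cdh11, Entrez gene 12552, chromosome 8, 102632095 to 102785493, minus strand), a type II cadherin of fibroblasts and osteoblasts, was the other member that was higher in Zeb1cKO. It was at 1.54 FPKM (164 counts) in PyMT and 2.60 (274 counts) in Zeb1cKO, a count ratio of 1.69 (1.39 to 2.07) and a log2 ratio of 0.50. The 10 fibroblast markers had a median log2 ratio of 0.14 and summed to 654 FPKM in PyMT and 691 in Zeb1cKO. Among them Lum (6.36 and 14.41 FPKM) and Thy1 (12.15 and 19.76) were higher in Zeb1cKO, and Postn (128.49 and 33.19) and Dcn (22.87 and 14.27) were lower. The Cdh11 ratio differed from that of the fibrillar collagen gene Col3a1 by less than counting error (1.13, 0.926 to 1.38). It was 1.51 times that of Col1a1 (1.24 to 1.84), 1.46 times that of Pdgfra (1.14 to 1.88) and 6.55 times that of Postn (5.34 to 8.04), all 4 pairs chosen after the values were seen. The part of fibroblasts in the Cdh11 difference was not tested.

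H-cadherin (Cdh13, Entrez gene 12554, chromosome 8, 118140017 to 119324929, plus strand) is held in the membrane by a lipid anchor, has no cytoplasmic tail and therefore binds no catenin. It is known from endothelium and muscle, where it binds adiponectin. Its level was 4.62 FPKM (371 counts) in PyMT and 1.85 (147 counts) in Zeb1cKO. The count ratio was 0.402 (0.330 to 0.488), and the log2 ratio of -0.98 lay just inside 2-fold, with a pseudocount of 0.1 giving -1.28. The 9 endothelial markers had a lower sum in Zeb1cKO too, 94.7 FPKM against 57.8. Of the 8 compared, 7 had a log2 ratio below 0, beside 41.9% of all compared genes, with a median of -0.48, and Kdr was at 1.64 and 1.69 FPKM. Cldn5 had the lowest ratio of the list, at 15.06 and 3.17 FPKM, and its count ratio of 0.213 (0.166 to 0.270) was below that of Cdh13. Against the endothelial cadherin gene Cdh5 the Cdh13 ratio was lower, at 0.587 (0.466 to 0.737), a pair chosen after the values were seen. Skeletal muscle genes, among them Acta1 (112.11 and 0.25 FPKM) and Ckm (18.90 and 0.30), were lower by far more. The parts of endothelium and muscle in the Cdh13 difference were not tested.

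**Figure D2:**
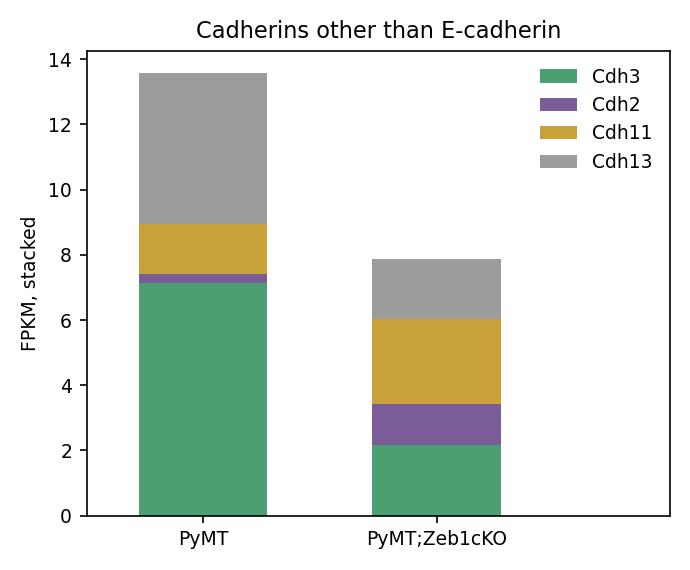
Stacked FPKM of the 4 member cadherins other than E-cadherin in each library (1 library per bar, no error shown). The sum was 13.6 FPKM in PyMT, mostly Cdh3 (7.13) and Cdh13 (4.62), and 7.88 in Zeb1cKO, where Cdh11 (2.60) was the highest.

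The order of the minor cadherins therefore differed between the libraries. In the PyMT library it ran Cdh3, Cdh13, Cdh11, Cdh2, with no overlap of the counting intervals of neighbours. In the Zeb1cKO library it ran Cdh11, Cdh3, Cdh13, Cdh2, and the intervals of Cdh11 (2.30 to 2.93 FPKM) and Cdh3 (1.86 to 2.51) overlapped, as did those of Cdh3 and Cdh13 (1.56 to 2.17). E-cadherin took 90.8% of the summed FPKM of the 5 cadherins in PyMT and 92.2% in Zeb1cKO. The share of Cdh3 went from 4.85% to 2.15% and that of Cdh13 from 3.14% to 1.83%, while the share of Cdh2 went from 0.197% to 1.25% and that of Cdh11 from 1.05% to 2.58%. Cdh11 thus stood above Cdh3 and Cdh13 in Zeb1cKO, though its interval overlapped that of Cdh3, while Cdh3, Cdh13 and Cdh2 kept their order. The E-cadherin share was nearly the same.

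The catenins were abundant in both libraries and lower in Zeb1cKO to different degrees. Beta-catenin (Ctnnb1, Entrez gene 12387, chromosome 9, 120933400 to 120960507, plus strand), which links cadherin to alpha-catenin and also carries Wnt signals to the nucleus, was the highest of the 8 genes. It was at 387.59 FPKM (28860 counts) in PyMT and 268.07 (19771 counts) in Zeb1cKO, with a count ratio of 0.695 (0.682 to 0.708) and a log2 ratio of -0.53. Alpha-catenin (Ctnna1, Entrez gene 12385, chromosome 18, 35118902 to 35254776, plus strand), the actin-binding link of the complex, was at 141.05 FPKM (10726 counts) and 114.52 (8624 counts). Its count ratio was 0.815 (0.793 to 0.839) and its log2 ratio -0.30.

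The catenin closest to an equal level was p120-catenin (Ctnnd1, Entrez gene 12388, chromosome 2, 84587096 to 84658977, minus strand), which slows the uptake of cadherins from the membrane. It was at 54.30 FPKM (5735 counts) in PyMT and 50.35 (5285 counts) in Zeb1cKO, with a count ratio of 0.935 (0.900 to 0.970) and a log2 ratio of -0.11. After scaling by the median ratio the log2 ratio was -0.25, and 36.1% of compared genes lay below it with the authors' scaling. The gene length that the authors' tables give for Ctnnd1, an average over its 7 listed transcripts, was 5083.25 bases in PyMT and 5107.16 in Zeb1cKO, and which of the transcripts differed is not given there. In both libraries the order was Ctnnb1, Ctnna1, Cdh1, Ctnnd1, and no counting intervals of neighbours overlapped.

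Promoter sequences are shown because Zeb1 binds E-boxes of the form CAGGTG, through which it is known to repress epithelial genes. RefSeq windows of GRCm38.p6 from 250 bases before to 50 bases after a gene start were available for Ctnnb1 and Ctnnd1 alone among the 8 genes. Cdh1, the other cadherins and Ctnna1 had no window, so their promoters could not be scanned. Neither CAGGTG nor its reverse complement CACCTG, which are the same site read on either strand, stood in any of the 4 windows of these genes, while 20.2% of the 32851 windows in the table held it. Of the 15 adherens junction partners with a window, 4 held it in at least 1 window. This is a count of genes, some with more than 1 window, and cannot be set against the 20.2% of windows. The windows below are those of the most upstream start of each catenin, and of Nectin2 and Nectin3, nectins that pass 2-fold in opposite directions (values further on). Capitals mark the E-box, which starts 53 bases before the start of Nectin2 and is in none of the other windows shown. The 2 nectins were picked by their ratios and do not stand for the list. The other partners with a match were Actn4 (log2 ratio -0.26), Pard3 (-0.16) and Magi1 (0.03). Zyx (-1.96) and Ajuba (-0.96), named here with their values known, had none. Whether the E-box goes with the direction of a gene was not tested. Ctnnb1 is chr9:120933150-120933449 on the plus strand, Ctnnd1 chr2:84658928-84659227 on the minus strand, Nectin2 chr7:19749524-19749823 on the minus strand and Nectin3 chr16:46496918-46497217 on the minus strand. A match is a description of the letters and not a binding site.
Ctnnb1: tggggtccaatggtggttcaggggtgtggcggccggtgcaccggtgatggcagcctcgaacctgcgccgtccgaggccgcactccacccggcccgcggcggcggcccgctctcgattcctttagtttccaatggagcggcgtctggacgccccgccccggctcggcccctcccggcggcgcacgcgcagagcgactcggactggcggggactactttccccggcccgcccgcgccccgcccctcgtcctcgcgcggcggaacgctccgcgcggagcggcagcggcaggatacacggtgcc
Ctnnd1: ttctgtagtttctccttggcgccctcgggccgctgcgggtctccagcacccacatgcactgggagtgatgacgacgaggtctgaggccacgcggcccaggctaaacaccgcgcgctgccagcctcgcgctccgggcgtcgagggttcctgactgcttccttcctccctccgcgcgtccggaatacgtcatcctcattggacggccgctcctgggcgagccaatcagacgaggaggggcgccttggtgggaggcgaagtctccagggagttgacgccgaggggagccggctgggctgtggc
Nectin2: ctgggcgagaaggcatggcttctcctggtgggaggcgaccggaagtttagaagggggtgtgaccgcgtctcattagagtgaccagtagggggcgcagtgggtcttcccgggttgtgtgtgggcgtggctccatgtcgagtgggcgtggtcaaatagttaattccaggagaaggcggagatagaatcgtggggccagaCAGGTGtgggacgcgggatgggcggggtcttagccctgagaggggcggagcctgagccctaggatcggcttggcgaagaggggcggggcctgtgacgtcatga
Nectin3: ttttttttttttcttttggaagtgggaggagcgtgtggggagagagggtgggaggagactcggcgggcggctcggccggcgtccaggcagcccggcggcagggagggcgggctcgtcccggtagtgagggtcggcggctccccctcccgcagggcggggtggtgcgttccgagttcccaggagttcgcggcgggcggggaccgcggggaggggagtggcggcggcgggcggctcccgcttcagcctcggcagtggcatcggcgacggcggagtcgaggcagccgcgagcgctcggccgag
The Ctnnb1 window is 75.3% G and C with 46 CpG dinucleotides, and the Ctnnd1 window 67.7% with 30.

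**Figure D3:**
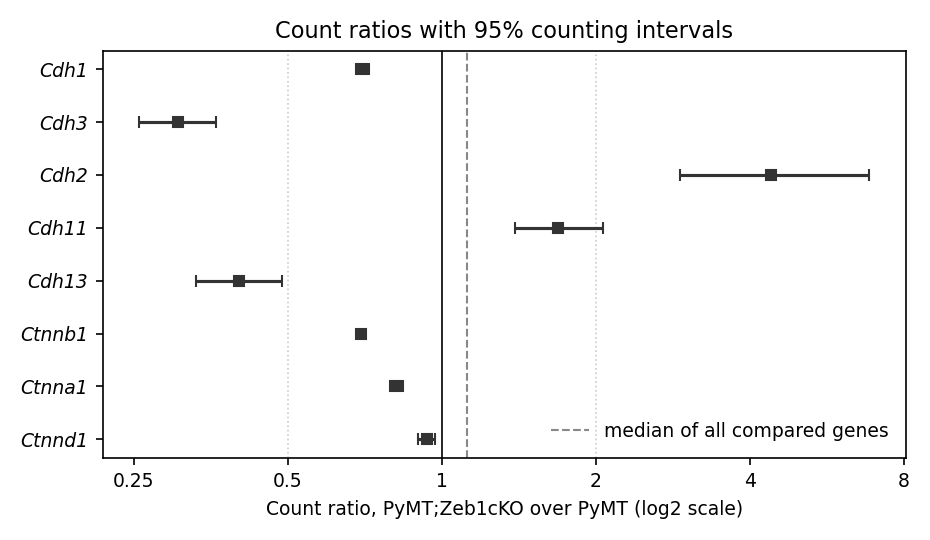
Count ratio of each gene, Zeb1cKO over PyMT library (log2 axis), with exact 95% counting intervals as bars, dotted lines at 0.5 and 2, and a dashed line at 1.12, the median of all compared genes. Cdh2 and Cdh11 lie above 1, and the other 6 genes below it.

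The contrast of E-, N- and P-cadherin with the catenins was taken gene by gene as the cadherin's count ratio over the catenin's, in which the library totals cancel. E-cadherin and beta-catenin kept the same proportion within counting error. Their ratio of count ratios was 1.01 (0.973 to 1.04), and Cdh1 amounted to 0.344 of Ctnnb1 in FPKM in PyMT and to 0.347 in Zeb1cKO. Relative to alpha-catenin E-cadherin was lower in Zeb1cKO, at 0.857 (0.824 to 0.892), and relative to p120-catenin it was lower still, at 0.748 (0.714 to 0.784). The FPKM of Cdh1 was accordingly 2.46 times that of Ctnnd1 in PyMT and 1.85 times in Zeb1cKO.

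N-cadherin was higher relative to every catenin in Zeb1cKO, by 5.40 times (3.58 to 8.40) against Ctnna1, 6.34 times (4.21 to 9.86) against Ctnnb1 and 4.71 times (3.12 to 7.34) against Ctnnd1. P-cadherin was lower relative to every catenin, at 0.374 (0.314 to 0.444), 0.439 (0.369 to 0.520) and 0.326 (0.273 to 0.388) in the same order. Of the 9 pairs, the one of Cdh1 and Ctnnb1 alone had an interval that holds 1. The like share over pairs of all genes was not computed, and 83.0% of compared genes had a count ratio interval without 1. A ratio like that of Cdh1 (0.699) is not particular to the junction. The endothelial marker Eng, named after its values were seen, had 0.699 too. Within the catenins, beta-catenin was lower relative to alpha-catenin (0.852, 0.824 to 0.881) and to p120-catenin (0.743, 0.713 to 0.775). Summed over the families, the 5 cadherins reached 147 FPKM and the 3 catenins 583 in PyMT, against 101 and 433 in Zeb1cKO, which puts cadherin at 0.252 and 0.233 of catenin. Most of each sum is Cdh1 or Ctnnb1.

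**Figure D4:**
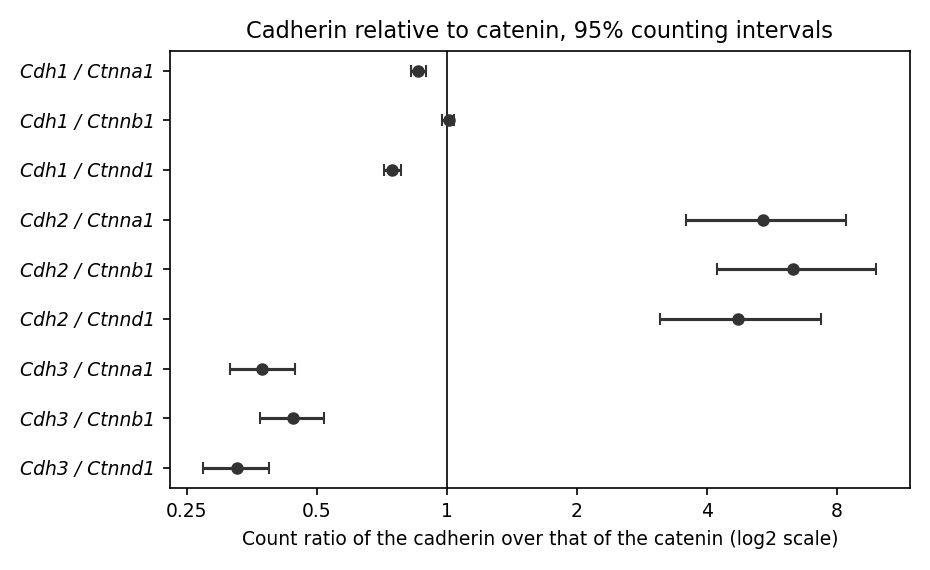
Count ratio of Cdh1, Cdh2 and Cdh3 divided by that of each catenin (log2 axis), with exact 95% counting intervals as bars; above 1 the cadherin was higher in Zeb1cKO relative to that catenin. The pair of Cdh1 and Ctnnb1 sits on 1 (1.01), the Cdh2 pairs lie between 4.71 and 6.34, and the Cdh3 pairs between 0.326 and 0.439.

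Other cadherins were scarce. Of 18 further cadherin genes 7 were listed in neither library, and 2 of the rest passed the filter on low values. VE-cadherin (Cdh5), the endothelial cadherin, was at 8.90 and 6.07 FPKM (count ratio 0.685, 0.610 to 0.769), and Cdh24, a type II cadherin, was at 3.69 and 6.39 FPKM (1.74, 1.48 to 2.04). Below the filter, and named after their values were seen, M-cadherin (Cdh15), a cadherin of muscle cells, had 11 counts in PyMT and none in Zeb1cKO, beside the muscle genes above. The counting interval of its ratio reached up to 0.404. R-cadherin (Cdh4) had 1 count and 16, a count ratio of 16.2 (2.52 to 681). Cdh23, a cadherin of hair cells of the inner ear, had 63 counts and 18, a ratio of 0.290 (0.161 to 0.496). Cdh19, known from Schwann cells, had 36 counts and 20 (0.563, 0.309 to 1.000).

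Among the relatives of the catenins 1 of 7 compared genes was at least 2-fold higher and 1 lower, near the 10.2% and 8.78% of all compared genes, with a median log2 ratio of -0.27. Ctnnal1, an alpha-catenin-like protein gene, was higher in Zeb1cKO, at 8.17 and 28.88 FPKM with a count ratio of 3.46 (3.16 to 3.79). Pkp2, a desmosomal relative of p120-catenin, was lower, at 25.78 and 8.79 FPKM (0.343, 0.309 to 0.379). Plakoglobin (Jup), the closest relative of beta-catenin, was singled out with its values known. It was at 146.78 and 107.76 FPKM with a count ratio of 0.737 (0.719 to 0.755). The beta-catenin ratio was 0.943 times that of plakoglobin (0.915 to 0.973) and the E-cadherin ratio 0.949 times (0.914 to 0.985). Arvcf, a relative of p120-catenin, was at 18.34 and 20.30 FPKM, and Pkp1 at 30.10 and 19.92.

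Of the 18 adherens junction and actin partners 1 was at least 2-fold higher and 2 were lower, beside the same 10.2% and 8.78%, with a median log2 ratio of -0.21, and 13 had a ratio below 0 beside 41.9% of all compared genes. The nectins, immunoglobulin-type adhesion proteins of the same junction, split. Nectin2 was at 65.91 FPKM in PyMT and 29.39 in Zeb1cKO (count ratio 0.473, 0.442 to 0.505), and Nectin3 at 1.24 and 3.74 (3.20, 2.43 to 4.26). Nectin1 (13.02 and 12.35) and Nectin4 (51.51 and 34.48) lay within 2-fold, as did Afdn, which joins nectins to actin (23.27 and 15.02). Nectin1, Nectin4 and Afdn were named after their values were seen. The lowest ratio was that of Zyx, the focal adhesion protein zyxin that also joins strained junctions, at 205.47 and 51.91 FPKM (0.254, 0.244 to 0.265). Vcl, the alpha-catenin partner vinculin, also singled out with its values known, was at 18.49 and 11.38. Plekha7, which joins p120-catenin to microtubules, was higher in Zeb1cKO at 6.83 and 10.95 FPKM (1.64, 1.49 to 1.80).

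None of 10 genes of cadherin turnover and none of 10 genes of the beta-catenin destruction complex was past 2-fold by log2 ratio or by count ratio. Of all compared genes 10.2% were higher and 8.78% lower by log2 ratio, and 15.4% and 11.7% by count ratio. The medians were -0.05 and 0.18, against 0.13 for all compared genes. In the turnover list Zbtb33, the p120-catenin partner Kaiso, was higher in Zeb1cKO (5.06 and 9.35 FPKM), with non-whole counts that make its ratio uncertain, and so was Adam10 (14.86 and 21.81), the protease that sheds the E-cadherin ectodomain. Pip5k1c, a lipid kinase that acts in E-cadherin trafficking, was lower (53.93 and 29.01), as was the related protease gene Adam15 (39.44 and 26.92). In the destruction complex the ubiquitin ligase gene Btrc was higher in Zeb1cKO (3.19 and 5.00 FPKM), as was Axin2 (0.85 and 1.31), a scaffold and known beta-catenin target. Axin2 passed the filter through Zeb1cKO alone, where it is high, and had 75 and 114 counts (count ratio 1.54, 1.14 to 2.09). Gsk3b (20.34 and 11.95 FPKM), the kinase that marks beta-catenin for breakdown, and the scaffold gene Axin1 (48.15 and 32.00) were lower.

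Genes known to repress Cdh1 did not move one way. Of 8 such genes 5 passed the filter, with 1 at least 2-fold higher and none lower by log2 ratio, beside 10.2% and 8.78% of all compared genes, and a median of -0.23. Zeb1 is in this list but below the filter (count ratio 0.401), so it is not in these numbers. Snai2 was higher in Zeb1cKO, with 134 counts against 384 (count ratio 2.91, 2.38 to 3.57), while Twist1 had 114 and 50 (0.445, 0.312 to 0.626) and Snai1 118 and 82 (0.705, 0.525 to 0.942). Tcf3, which encodes the E2A proteins, was the most abundant of them, at 92.30 and 102.87 FPKM. Zeb2, also below the filter and named after its values were seen, had 75 and 73 counts (0.987, 0.705 to 1.38).

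**Figure D5:**
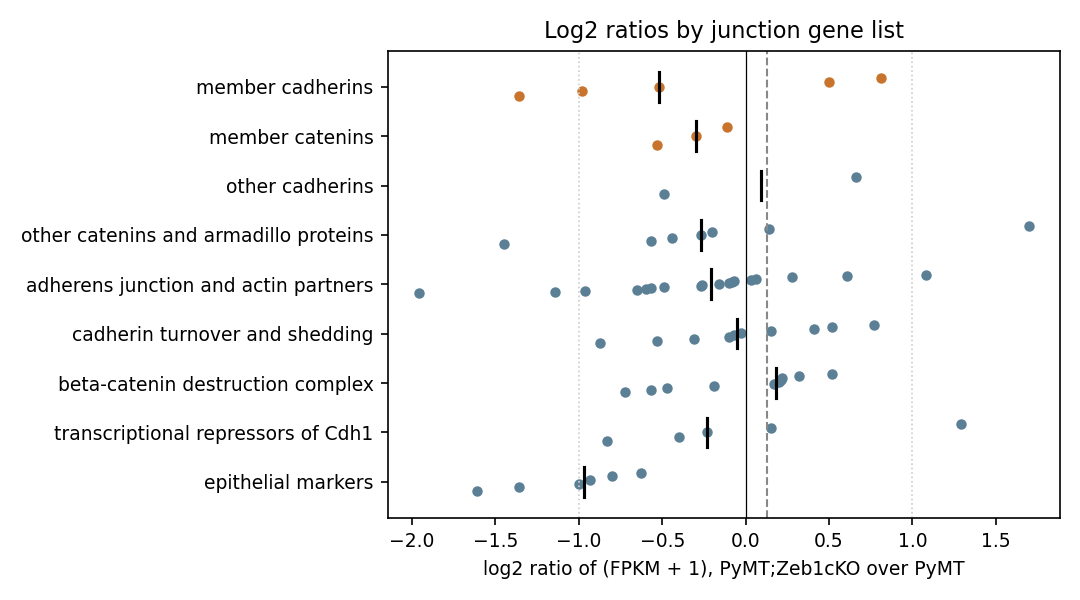
Log2 ratio of (FPKM + 1), Zeb1cKO over PyMT, of each compared gene (points) in the members (orange) and in lists of other junction genes, Cdh1 repressors and epithelial markers (blue), with black bars at list medians, a dashed line at the median of all compared genes (0.13) and dotted lines at 2-fold. The member cadherins spread from -1.36 to 0.81, the member catenins from -0.53 to -0.11, and all 6 epithelial markers lie below 0.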

How the data were processed

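RNA of 2 libraries, 1 per genotype, was sequenced after oligo(dT) enrichment, per the labels' protocols. The authors' deposited tables give an estimated count (named expected count, per the file headers), an FPKM value and a gene length per gene. The submitters' processing notes name RSEM 1.2.8, Bowtie2 2.2.5, HISAT2 2.1.0, DESeq and the mm10 build, without saying what each did, and the sources used here do not name the annotation. A gene missing from 1 table was taken as 0. Counts were rounded to whole numbers; all 8 members had whole counts (tolerance 1e-09), against 13.0% and 12.8% of genes with non-whole counts.

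Log2 ratios of (FPKM + 1) were computed for 12653 genes that reached an FPKM of 1 in at least 1 library. Count ratios carry exact 95% intervals (Clopper-Pearson), ratios of count ratios the exact interval of the conditional odds ratio, and levels a Poisson interval. PCR reads without molecular identifiers are not independent molecules, so all intervals cover counting error only. With 1 library per group no p-value is given, and 2-fold is a rule of size. Coordinates, synonyms and promoter windows are from RefSeq on GRCm38.p6, the assembly of mm10, with strands from GENCODE.

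The members and 14 further gene lists were chosen with earlier results of these data known. Of 141 symbols, 8 were listed in neither library and 5 were matched through another symbol. The text names all members, up to 2 genes with the highest and 2 with the lowest log2 ratio of a list, the most abundant marker of another cell type, Zeb1 and Epcam. Not all are reported. Others are said to be named after their values were seen, serve as markers beside a member, or are named for a promoter match. No gene of like pattern is named, since 2 libraries give 1 ratio per gene. The steps were tested on simulated counts drawn with counting error alone. That checks the computation and not the spread between animals or preparations, which the simulation did not hold. Alternatives were a pseudocount of 0.1, median-ratio, TPM and TMM scaling, other filters and other folds. TMM factors came from edgeR 4.0.16 (R 4.3.3) and all else from scipy 1.17.1, numpy 2.4.6 and pandas 2.3.3 under Python 3.11.15, with figures by matplotlib 3.10.9.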

Additional observations from a re-analysis of the deposited data

How the results depend on the processing

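Every member kept the direction of its log2 ratio under the other pseudocount and the 3 other scalings or units, and of its count ratio under both other scalings. Much of this was fixed in advance. A change of pseudocount cannot turn a sign, and median-ratio and TMM scaling lowered every count ratio. The 6 members below 1 therefore could not turn under these. The sizes were less stable: 8 of 16 alternative count ratios and 18 of 32 alternative log2 ratios lay outside the counting interval. Such count ratios were those of Cdh1 (0.631 with the median ratio), Ctnnb1 (0.627), Ctnna1 (0.736) and Ctnnd1 (0.843), all further below 1 than reported. The log2 ratio of Cdh1 ranged from -0.67 to -0.52, that of Cdh3 from -1.74 to -1.36 and that of Cdh2 from 0.73 to 1.80. The number of members at least 2-fold lower was 1 as reported and 0 at 3-fold. It was 2 at 1.5-fold, at a pseudocount of 0.1, under median-ratio scaling, with TPM, and with CPM and TMM factors. The number at least 2-fold higher was 0 as reported and 1 at 1.5-fold, at a pseudocount of 0.1, and with CPM and TMM factors. Cdh13 at -0.98 lies next to the threshold, and Cdh2 depends on the pseudocount and on the unit it is added to. The log2 ratio of Cdh2 was 1.45 with CPM and TMM factors and 0.73 with FPKM scaled by the median ratio, though its count ratio was nearly the same under both (3.97 and 3.98). All 9 cadherin to catenin ratios stayed inside their counting interval when FPKM ratios were used. This was nearly fixed in advance and says little about stability. Library depth cancels in both, and gene length changed by at most 23.9 bases (Ctnnd1) among these genes. With counts in place of FPKM the share of Cdh1 in the PyMT library was 91.4%, that of Cdh3 4.41% and that of Cdh13 2.76%, and the share of Cdh11 in the Zeb1cKO library was 2.99%. Over all compared genes 1291 were 2-fold higher and 1111 lower; 3002 and 2183 passed 1.5-fold, and 414 and 447 passed 3-fold. Of genes past 2-fold, 53.7% were higher, and 42.2% were after median-ratio scaling. Signs of list medians near 0 turned: other cadherins (0.09) to -0.04 with the median ratio, -0.03 with TMM factors and -0.01 without a filter; basal markers (0.05) to -0.08 and -0.09 with the median ratio and TMM; leukocyte markers (0.00) to -0.11, -0.04 and -0.12 with the median ratio, TPM and TMM. No paired analysis was possible because each group has 1 library, and no replicate could be left out. Depth limits Cdh2 most, with 29 counts in the PyMT library.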
